A study of Rattus norvegicus with 25 samples.

Results

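Small nuclear RNAs (snRNAs) were counted in sperm of 25 male rats. All rows that the ncRNA count matrix annotates as snRNA were taken, 229 of its 3804 Ensembl transcripts, and transcripts with identical counts in all 25 libraries were reduced to 1 row. This left 123 snRNA rows of 2374 rows in the matrix, numbered here by mean abundance, so that snRNA row 1 had the most counts. Of these, 37 rows standing for 60 transcripts passed edgeR's filter on low counts and were tested among 410 rows in all. The files pair the identifiers with no gene names, and of the snRNA genes 0 could be looked up in the RefSeq table, so that rows could not be assigned to U1, U2 or any other snRNA.

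The males were Sprague–Dawley rats, all with a jugular catheter, that self-administered intravenous morphine (F0_MOR, n = 7) or saline (F0_SAL, n = 7) until sperm collection, or that then abstained for 90 days (F0_ABS-MOR, n = 6, and F0_ABS-SAL, n = 5). Sperm came from the cauda epididymis after a double swim-up, and each library was from a separate male. The paper points out that the timepoints also differ in age and in closeness to behavioural testing. These cannot be told apart from abstinence here, so that "after abstinence" below names only the later timepoint. The matrix columns carry a letter, REG or TO, and SAL or MOR. REG was taken as nonabstinent and TO as abstinent from the number of columns alone, and no label ties a letter to a replicate number.

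The major snRNAs, U1, U2, U4, U5 and U6, pair with splice sites and with each other in the spliceosome, which removes introns from pre-mRNA in the nucleus. Vertebrate genomes hold many copies and degenerate pseudogenes of each, so that a short read often matches several annotated transcripts. Mature sperm carry little transcription, and their small RNA libraries hold fragments of longer RNAs beside miRNAs and other regulatory RNAs.

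Total ncRNA counts were between 1540914 and 6489784 per library and mature miRNA counts between 1032386 and 3203211. Mitochondrial rRNA took, over distinct rows, median shares of 84.0% and 77.9% in nonabstinent and 72.1% and 70.6% in abstinent males (saline and then morphine), which limits the depth left for snRNAs. All 300 pairs of libraries differed beyond sampling noise, the smallest chi-square per degree of freedom being 24.8. No count of 1 was present in the matrix, and the smallest count above 0 was 2.

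The 37 tested snRNA rows were not 37 separate measurements. Rows 2 to 9, each with 1 transcript, differed from row 2 by at most 12.2% of its summed counts, and rows 12 to 19 (18 transcripts) differed from row 12 by at most 1.95%. Row 1 stood for 11 transcripts with the same counts, of which ENSRNOT00000077425.1 is 1. When rows that differed by at most 15% were linked, the 37 rows formed 14 groups, called read sets here, and the row of each with the most counts was taken as its lead row. With links at 5% there were 20 read sets, and at 30% again 14. Counted over the lead rows, row 1 held 60.6% of the counts, row 2 33.1%, row 10 3.68%, row 11 1.40% and row 12 0.804%, and the other 9 lead rows at most 0.153% each. Transcript lengths are not in the files, so that these shares compare counts and not RNA levels between rows.

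The remaining 86 rows, 169 transcripts, were too low to test, and the highest count of any of them in a library was 20. Of these, 24 had counts in 1 library, 40 in 2 to 5 libraries and 22 in 6 or more. The number of untested rows with counts per library had medians of 9 and 12 in nonabstinent saline and morphine males, against 25 and 16 in abstinent ones. Untested rows were seen more widely in the abstinent libraries, whose snRNA counts were also deeper.

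Both of the most abundant snRNA rows were higher after abstinence, and in both treatments. In TMM-scaled CPM, counts relative to library size, row 1 was at 5508, 9271 and 9706 in F0_SAL (lowest, median and highest). In F0_ABS-SAL its 5 values were 26258, 39040, 40277, 45335 and 57981 CPM. Every abstinent saline library thus lay above every nonabstinent one, with no value between them. The log2 fold change was 2.32 (standard error, SE, 0.22, adjusted p = 7.20e-10 by edgeR). Among morphine males, row 1 was at 4464, 8226 and 10132 CPM in F0_MOR and at 18523, 33591 and 38562 CPM in F0_ABS-MOR. These groups did not overlap either, with a log2 fold change of 2.03 (SE 0.21, adjusted p = 1.22e-09).

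Row 2, the transcript ENSRNOT00000084201.1, was at 3872, 6591 and 7711 CPM in F0_SAL, and its 5 values in F0_ABS-SAL were 12498, 17033, 21362, 22554 and 25128. In F0_MOR it was at 3207, 5231 and 6538 CPM and in F0_ABS-MOR at 15707, 17334 and 20179. The abstinent libraries were again the high ones, without overlap in either treatment. The log2 fold changes were 1.69 (SE 0.20, adjusted p = 2.13e-08) in the saline and 1.75 (SE 0.19, adjusted p = 4.68e-09) in the morphine groups. Rows 3 to 9, which largely carry the same reads, had log2 fold changes from 1.69 to 1.79 in the saline and from 1.75 to 1.99 in the morphine groups, and each was called in both.

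**Figure D1:**
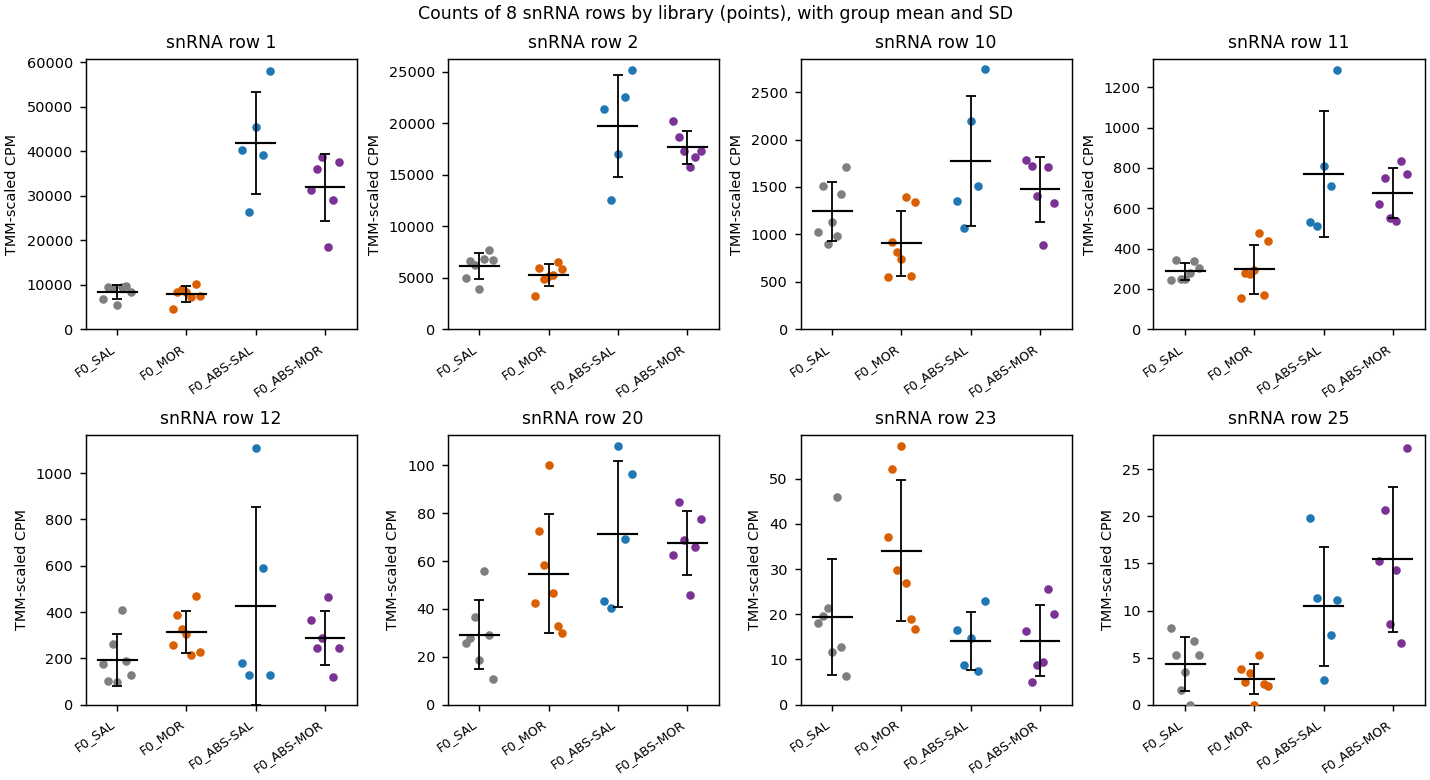
TMM-scaled CPM of 8 lead rows in each library, 1 panel per row with its own linear axis from 0. Points are libraries (7 F0_SAL, 7 F0_MOR, 5 F0_ABS-SAL, 6 F0_ABS-MOR), long bars are group means and whiskers the SD. Rows 1, 2 and 11 do not overlap between timepoints in either treatment, and row 12 has 1 high F0_ABS-SAL library at 1111 CPM. Row 23 is called lower after abstinence in the morphine groups alone, and its groups overlap in both treatments.

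Row 11 was the third lead row that was higher in both treatments. It was at 242, 279 and 342 CPM in F0_SAL, and its 5 values in F0_ABS-SAL were 512, 533, 708, 811 and 1284 CPM. In F0_MOR it was at 154.8, 277 and 478 CPM against 538, 685 and 834 in F0_ABS-MOR. No abstinent library fell within the nonabstinent range of its treatment. Its log2 fold changes, 1.43 (SE 0.27, adjusted p = 0.000199) and 1.19 (SE 0.26, adjusted p = 0.000781), were smaller than those of row 1.

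Row 10, between these rows in abundance, differed less. It was at 903, 1128 and 1712 CPM in F0_SAL and at 1064, 1350, 1511, 2196 and 2740 CPM in F0_ABS-SAL, with overlap, and the log2 fold change of 0.51 (SE 0.27, adjusted p = 0.162) did not pass. Morphine males had 554, 817 and 1389 CPM in F0_MOR and at 893, 1555 and 1786 in F0_ABS-MOR. Here the groups overlapped too, and the log2 fold change of 0.70 (SE 0.25) passed with an adjusted p of 0.0320. This call was lost in 10 of 14 other settings, and also when library G, N, I, J or X was left out. Without library I the log2 fold change was 0.18 and without library N 0.22.

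Counted over all 37 tested rows, 22 were called higher in F0_ABS-SAL than in F0_SAL (adjusted p under 0.1, log2 fold change above 0.58), where 23.2% of the 410 rows tested were called higher, and 0 were called lower, against 4.15%. Among morphine males 18 were called higher, against 25.6% of all rows, and 1 was called lower, against 9.27%. By limma-voom, 20 of the 37 rows were called in either direction in the saline and 19 in the morphine groups. DESeq2, which was run without that filter and gave a p for all 123 snRNA rows, called 20 and 20 of these, rows 38 and 42 that edgeR did not test among them. Read sets weigh on these counts, since of the 14 lead rows 7 were called higher in the saline groups, and 5 higher and 1 lower in the morphine groups. When all near-identical rows in the matrix were reduced to 1 before the fit, a step added after the data had been seen, 4 snRNA lead rows were called higher in each treatment. The saline count was 12 without library F or O and 11 without library W or R.

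Without overlap between groups, 10 snRNA rows were higher in F0_ABS-SAL than in F0_SAL (5.85% of all rows), namely rows 1 to 9 and 11. Among morphine males 17 rows were (13.7% of all rows), the same 10 and rows 25 to 31. Rows 2 to 9 are a single read set and rows 25 to 31 another, and of the 14 lead rows 3 and 4 were higher without overlap. No snRNA row was lower without overlap, against 1.46% and 0.488% of all rows. The median log2 fold change of the 37 snRNA rows was 1.25 in the saline groups, beside 0.27 for all rows tested. It was 0.60 in the morphine groups, beside 0.21. Over the 14 lead rows these medians were 1.21 and 0.10. For comparison, 7 of 13 snoRNA rows were called higher in the saline groups and 9 in the morphine groups, and 32 and 33 of 70 misc_RNA rows.

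Both treatments shared 11 snRNA rows called higher (19% of all rows tested), which were rows 1 to 9, 11 and 30. Another 11 snRNA rows were called in the saline groups alone (against 5.12% of all rows tested), namely rows 12 to 21 and 32. In the morphine groups alone 8 were called (against 12.7% of all rows tested), namely rows 10, 23, 25 to 29 and 31. In neither were 7 snRNA rows called (against 60% of all rows tested), of which row 22 was the most abundant, with log2 fold changes of 0.82 (SE 0.41, adjusted p = 0.149) and -0.24 (SE 0.39, adjusted p = 0.683). Of the 14 lead rows, 3 were called higher in both, 4 were called in the saline groups alone, 3 in the morphine groups alone and 4 in neither. The interaction of treatment and timepoint, which tests whether the timepoint difference itself differed, called 0 of the 37 rows by edgeR or limma-voom and 0 of 123 by DESeq2. Calls in 1 treatment alone are therefore not shown to differ between treatments. Unadjusted, 8 snRNA rows had an interaction p under 0.05 by edgeR (3.17% of all rows) and 3 by limma-voom, of 37 each, and 11 of 123 by DESeq2. The share over all rows is given for edgeR alone. The 8 by edgeR were rows 12 to 19, a single read set.

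**Figure D2:**
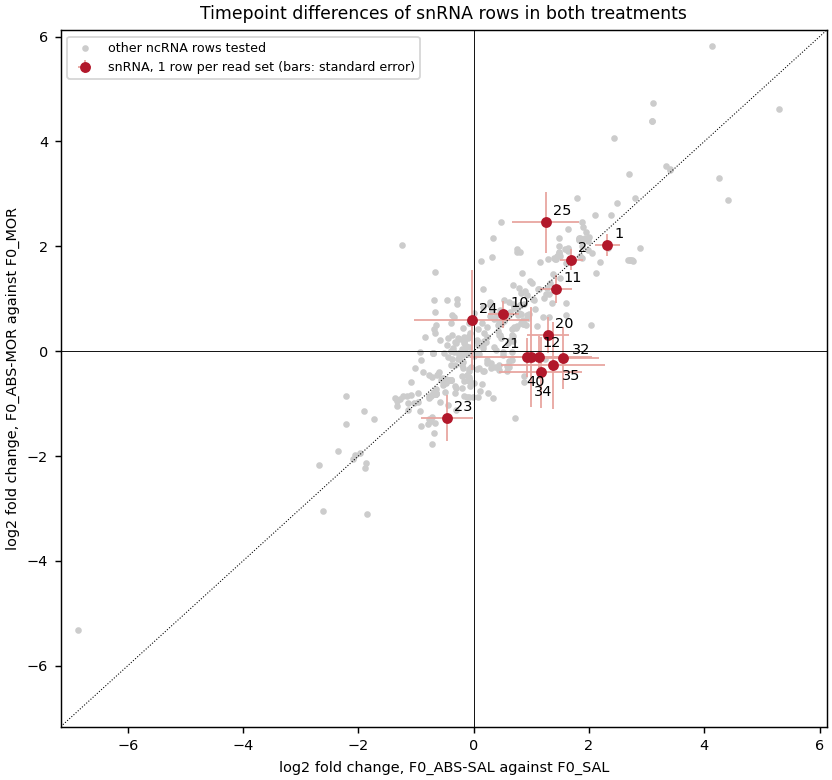
Log2 fold change after abstinence in the saline groups (x axis) and in the morphine groups (y axis) for the 14 snRNA lead rows (red, numbered, bars are standard errors) and for the other ncRNA rows tested (grey). Both axes are log2 and the dotted line marks equal values. Rows 1, 2 and 11 lie high on both axes, rows 12, 20, 21, 32, 34, 35 and 40 lie between 0.92 and 1.54 on the x axis and between -0.40 and 0.30 on the y axis, and row 23 lies below 0 on both.

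Rows 12 to 19 held the 9 copies of row 12 and 9 further transcripts. Row 12 was at 96.1, 174 and 408 CPM in F0_SAL and at 127, 130, 178, 589 and 1111 in F0_ABS-SAL, so that 3 of 5 abstinent libraries lay within the nonabstinent range. The log2 fold change was 1.14 (SE 0.43, adjusted p = 0.0598). Without library L, which had 1111 CPM, it was 0.42 (adjusted p = 0.517), and the call was lost as well without library F, O, W or R and in 7 of 14 other settings. For the morphine males, row 12 was at 217, 307 and 470 CPM in F0_MOR and 121, 267 and 463 in F0_ABS-MOR, ranges that overlap, with a log2 fold change of -0.12 (SE 0.41, adjusted p = 0.871). The interaction for row 12 was 1.26 (SE 0.60, unadjusted p = 0.0436, adjusted p = 0.991).

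Rows 25 to 31, a single read set at a few CPM, were higher in F0_ABS-MOR. Row 25 was at 0, 2.46 and 5.24 CPM in F0_MOR and at 6.58, 14.8 and 27.3 in F0_ABS-MOR, without overlap, with a log2 fold change of 2.45 (SE 0.58, adjusted p = 0.00133). In F0_SAL it was at 0, 5.28 and 8.16 CPM, and its values in F0_ABS-SAL were 2.62, 7.35, 11.1, 11.3 and 19.8. These overlapped, and the log2 fold change of 1.25 (SE 0.58, adjusted p = 0.117) did not pass. In raw counts row 25 had at most 30 per library in F0_MOR and 81 in F0_ABS-MOR.

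Row 32 was called higher in the saline groups alone, with 1.54 (SE 0.64, adjusted p = 0.0809), and in 1 of 13 other settings. Its values in F0_ABS-SAL were 2.22, 2.99, 5.66, 6.70 and 24.6 CPM, against 0, 2.44 and 6.34 in F0_SAL, so that library L stood far above the nonabstinent range and library E, at 6.70 CPM, just above it. Without library L the log2 fold change was 0.63 (adjusted p = 0.528), and the call was also lost without C, F, P, V, W or R.

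Rows 20 to 23 were ordered by their counts within libraries. Row 20 had at least as many counts as row 21 in 25 of 25 libraries, row 21 at least as many as row 22 in 23, and row 22 at least as many as row 23 in 25. Any reads that they share cannot be told apart from reads of 1 row alone. Row 20 was at 10.6, 28.1 and 56.0 CPM in F0_SAL and at 40.4, 43.4, 69.0, 96.4 and 108 in F0_ABS-SAL, with a difference of 1.29 on the log2 scale (SE 0.36, adjusted p = 0.00905). Among morphine males it was at 29.8, 46.8 and 100 CPM against 45.7, 67.4 and 84.6, a log2 fold change of 0.30 (SE 0.34, adjusted p = 0.563). Its groups overlapped in both treatments.

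Row 23, the transcript ENSRNOT00000080566.1, was the 1 snRNA row called lower after abstinence. It was at 16.7, 29.9 and 57.1 CPM in F0_MOR and at 5.11, 12.8 and 25.6 in F0_ABS-MOR, which differ by -1.27 on the log2 scale (SE 0.44, adjusted p = 0.0251). It remained called without any 1 library of these groups, with log2 fold changes from -1.94 (without library N) to -1.11, and was lost in 2 of 14 other settings, the covariate for total counts and the removal of libraries A to E. In the saline groups it was at 6.25, 18.03 and 45.97 CPM against 7.35, 8.68, 14.8, 16.6 and 23.04, and the log2 fold change of -0.46 (SE 0.45, adjusted p = 0.494) did not pass.

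The ratio of row 23 to row 20, which needs no scaling between libraries, separated the timepoints in both treatments. The ratio was 0.444, 0.621 and 0.821 in F0_SAL and 0.107, 0.137, 0.215, 0.239 and 0.383 in F0_ABS-SAL. It was 0.513, 0.575 and 0.868 in F0_MOR and 0.0604, 0.232 and 0.389 in F0_ABS-MOR. All 11 abstinent libraries lay below all 14 nonabstinent libraries. The log2 fold changes of rows 20 and 23 were 1.29 and -0.46 in the saline groups, and 0.30 and -1.27 in the morphine groups. The ratio does not tell a lower row 23 from a higher row 20. This pair was chosen after its values had been seen, so that no test is given.

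Ratios among rows 1, 2 and 10, the 3 lead rows with the most counts, moved with timepoint too. Tests of these ratios were added after the data had been seen, when rows 1 and 2 already had larger log2 fold changes than row 10. The 3 ratios also depend on each other, so that the p-values below describe the separation and add no independent support. The count ratio of row 1 to row 2 had medians of 1.40 in F0_SAL (1.25 to 1.49) and 2.10 in F0_ABS-SAL (1.73 to 2.66), without overlap (two-sided exact permutation test of log2 ratios, p = 0.00126, the smallest these group sizes allow, adjusted p = 0.00505 over 12 tests). The morphine groups had medians of 1.39 (1.25 to 1.87) and 1.83 (1.18 to 2.23), and the difference did not pass (exact p = 0.127, adjusted p = 0.254). The ratio of row 1 to row 10 went from a median of 6.58 to 24.7 in the saline groups (exact p = 0.00126, adjusted p = 0.00505) and from 8.92 to 20.8 in the morphine groups (exact p = 0.00233, adjusted p = 0.00699). The ratio of row 2 to row 10 went from 4.85 to 11.7 (exact p = 0.00126, adjusted p = 0.00505) and from 5.92 to 11.8 (exact p = 0.00291, adjusted p = 0.00699). Rows 1 and 2 thus rose relative to row 10 in both treatments, and these differences kept their sign with each library left out. Between treatments, the 6 ratio tests gave exact p-values from 0.188 to 0.673.

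**Figure D3:**
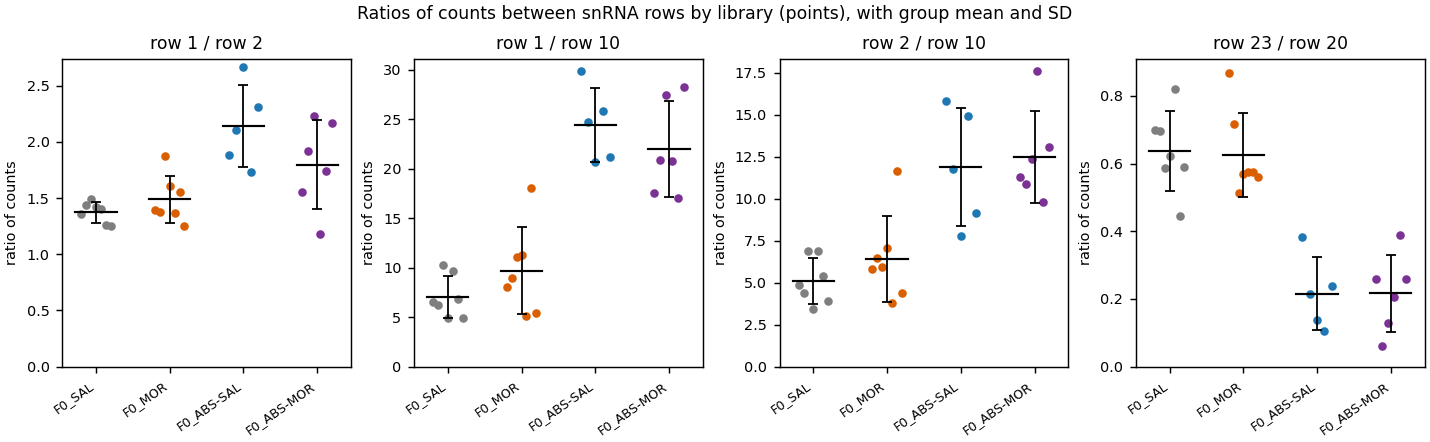
Ratio of counts between pairs of snRNA rows in each library (points), with group mean (long bar) and SD (whiskers), on linear axes from 0. The abstinent libraries are above the nonabstinent ones for row 1 to row 10 and row 2 to row 10 in the saline groups, overlap slightly in the morphine groups, and are below them for row 23 to row 20 in both.

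The size of the log2 fold changes depended on the scaling between libraries, and the direction of rows 1, 2, 10, 11 and 23 did not under the 6 scalings tried. The median of all rows tested was 0.27 in the saline and 0.21 in the morphine groups with TMM, and ranged from 0.09 to 0.45 and from -0.18 to 0.21 over the scalings. Row 1 ranged from 2.11 to 2.46 in the saline and from 1.60 to 2.03 in the morphine groups, and row 2 from 1.49 to 1.87 and from 1.32 to 1.75. Among all calls in the saline groups, the share called higher was 84.8% with TMM and 60.2% with TMM computed from rows that are not snRNA. It was 73.4% and 47.7% in the morphine groups. Leaving out library N moved row 1 to 1.37 and row 2 to 1.11 in the morphine groups, and the median of all rows moved by -0.52 in that fit. Both rows remained called in that fit, and row 1 then lay 1.68 above the median of all rows.

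**Figure D4:**
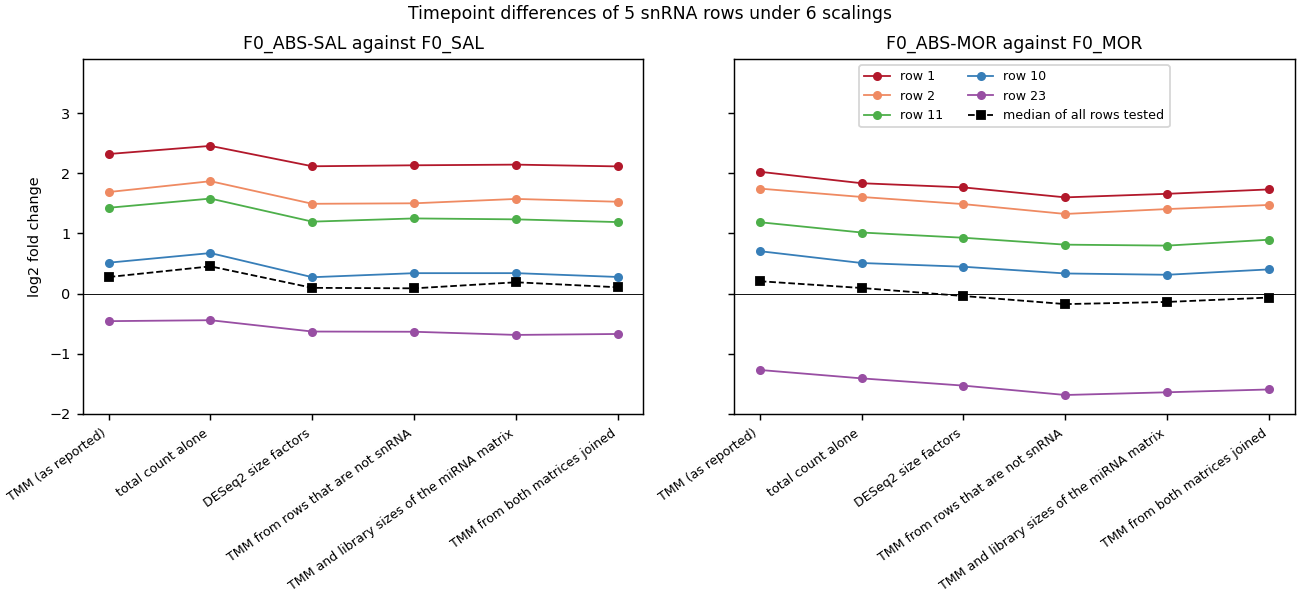
Log2 fold change after abstinence of snRNA rows 1, 2, 10, 11 and 23 (circles) and the median of all ncRNA rows tested (black squares) under 6 ways of scaling libraries, in the saline groups (left) and the morphine groups (right). The 5 rows keep their order and sign in both panels. The median is between -0.18 and 0.45, and between some scalings some of the rows move against it.

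As a share of counts over distinct ncRNA rows, the 14 lead rows took a median of 1.45% in F0_SAL (0.615% to 1.95%) and 5.98% in F0_ABS-SAL (4.92% to 9.11%). The morphine groups had medians of 1.90% (0.648% to 2.47%) and 5.74% (4.17% to 6.38%). Per 100 mature miRNA counts, which come from a separate matrix, row 1 had a median of 1.32 and 1.67 counts in nonabstinent saline and morphine males, against 6.34 and 5.16 in abstinent ones. The share of snRNA was therefore higher after abstinence against both denominators. The first denominator still holds near-identical rows and so repeats reads. In bulk RNA, more cells of a type, more snRNA per cell and less of the other RNAs cannot be told apart.

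Other miRNA levels moved with timepoint, and their part in the snRNA differences was not tested. All 9 miRNAs of a testis and sperm list were found, with a summed median of 487949 CPM of miRNA counts (385167 to 572923) for F0_SAL, 447156 (349842 to 465470) for F0_MOR, 393169 (283352 to 446488) for F0_ABS-SAL and 400645 (230532 to 465127) for F0_ABS-MOR. Lists of other cell types had lower sums, of which smooth muscle reached the highest, 83977 CPM in F0_ABS-SAL. The 6 leukocyte miRNAs summed to medians of 1328 (896 to 2157), 1930 (1549 to 2285), 2351 (2090 to 3144) and 2698 (2213 to 3578) CPM in the same order. The 6 epithelial miRNAs had medians of 6158 (5033 to 10015), 9117 (6962 to 11234), 10860 (10352 to 19368) and 14202 (8174 to 20548) CPM. Epithelial sums were thus higher in F0_ABS-SAL than in F0_SAL without overlap, while leukocyte sums overlapped between timepoints. The 2 endothelial miRNAs had medians of 523 (441.6 to 742.8), 630 (559 to 740), 1570 (825 to 3421) and 1307 (1074 to 1662) CPM. The 3 smooth muscle miRNAs had 12723 (10771 to 16154), 14410 (12703 to 16423), 20653 (19786 to 83977) and 25846 (18207 to 45989) CPM. Both of these lists were higher in the abstinent groups without overlap in either treatment. Of the 4 erythroid miRNAs 3 were found, with medians of 986 (706 to 2104), 1477 (957 to 2167), 1141 (794 to 1286) and 880 (389 to 1557) CPM, ranges that overlapped. No miRNA found was at 0 in all libraries of a group. The sources used here do not say which libraries were prepared or sequenced together, so that timepoint and batch cannot be told apart.

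Between treatments, 0 of 37 snRNA rows were called at either timepoint by edgeR or limma-voom, and 0 of 123 by DESeq2. Over all biotypes edgeR and limma-voom called 0 rows at either timepoint, and DESeq2 1 between F0_MOR and F0_SAL. Between F0_MOR and F0_SAL, 3 rows had an unadjusted p under 0.05 by edgeR (3.41% of all rows) and 13 by limma-voom, of 37 each, and 10 of 123 by DESeq2. For unadjusted p the share over all rows is given for edgeR alone. The 3 rows by edgeR were rows 20, 21 and 22, with log2 fold changes of 0.91 (SE 0.34), 0.89 (SE 0.36) and 0.90 (SE 0.38). Their unadjusted p by edgeR's quasi-likelihood test was 0.0106, 0.0190 and 0.0241, and each had an adjusted p of 0.888. Their groups overlapped, row 20 being at 10.6 to 56.0 CPM in F0_SAL and 29.8 to 100 CPM in F0_MOR. Row 1 had a log2 fold change of -0.10 (SE 0.20, adjusted p = 0.888) and row 2 of -0.22 (SE 0.18, adjusted p = 0.888). The sign of both was positive with total count alone and with scaling by the miRNA matrix, and that of row 1 also with both matrices joined.

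Between F0_ABS-MOR and F0_ABS-SAL, 0 snRNA rows had an unadjusted p under 0.05 by edgeR (0.244% of all rows) and 0 by limma-voom, of 37 each, and 2 of 123 by DESeq2. Row 1 had a log2 fold change of -0.39 (SE 0.22, adjusted p = 1.00) and row 2 of -0.16 (SE 0.21, adjusted p = 1.00). A call needed a log2 fold change above 0.58 in either direction, so that differences of this size could not be called. With these standard errors larger ones may have been missed as well, and for rows at low CPM standard errors reached 1.02.

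Row 24 varied between libraries of every group rather than between groups. Its 5 highest libraries were A, B, C, D and E, with at least 41 raw counts each, and the other 20 libraries had at most 32. In CPM these 5 were at 28.6, 16.8, 88.0, 50.8 and 58.0, and the highest of the other 20 was at 8.30. They comprise 2 F0_MOR libraries and 1 of each other group. Of the 410 rows tested, 1 other row had the same 5 libraries as its highest, and snRNA row 40 had 4 of them among its 5 highest. No sample label names a letter. Row 24 had log2 fold changes of -0.03 (SE 0.99) and 0.60 (SE 0.96) between timepoints, and when libraries A to E were left out, an alternative added after the data had been seen, 0 snRNA rows were called lower in the morphine groups.

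**Figure D5:**
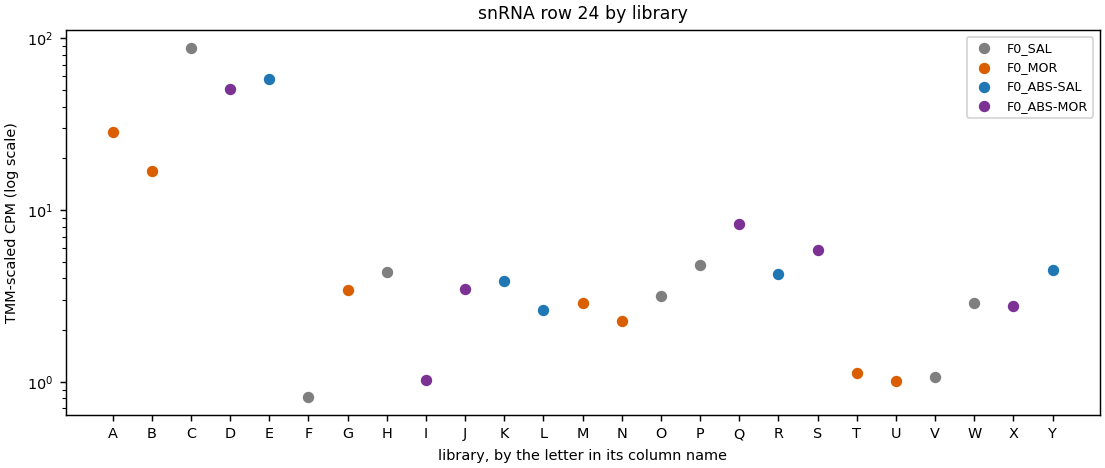
CPM of snRNA row 24 (log axis) in the 25 libraries, ordered by the letter in the column name and coloured by group. Libraries A to E, which come from all 4 groups, lie between 16.8 and 88.0 CPM, and the other 20 lie at 8.30 CPM or below.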

How the data were processed

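Sperm RNA was made into small RNA libraries (NEBNext kit) and the forward reads were analysed. With sRNAbench the authors trimmed and filtered reads, aligned them to the rat genome (rn6), assigned them first to miRBase and the rest to Ensembl ncRNAs, and deposited raw counts per transcript without normalization, 1 column per library. Reads shared by copies count for each copy, so near-identical snRNA rows repeat reads.

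Here, rows of identical counts within a biotype were reduced to 1, and the counts were tested in R 4.3.3 with edgeR 4.0.16 (quasi-likelihood test, filterByExpr, TMM normalization, 1 model with 4 groups and no covariates). A row was called where the log2 fold change exceeded 0.58 in either direction and the Benjamini-Hochberg adjusted p was under 0.1. The standard error is the log2 fold change divided by the square root of F, an approximation. DESeq2 1.42.0, limma 3.58.1 (voom), other scalings, filters, call thresholds, a covariate, 2 groups only, rows as deposited and each library left out were alternatives. The 12 ratio tests, the read set fit, the fit without libraries A to E and the interaction with each library left out were added after the data had been seen. The fit was checked on simulated data. P-values measure the spread between males.

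The rows described are the 10 most abundant, the 3 with the smallest p of those called per comparison and direction, up to 6 called in 1 timepoint comparison alone (by difference of log2 fold changes), up to 3 per comparison with an unadjusted p under 0.05 between treatments or for the interaction, and the most abundant row never called. Rows 11, 24, 25 and 38 were added after their values were seen. The snRNA rows, the marker lists and the rules were chosen with earlier results of these data known.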

Additional observations from a re-analysis of the deposited data

Results flagged for a closer look

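Within groups, a library was picked out when the gap to its nearest neighbour, relative to the range of its group, exceeded Dixon's 95% critical value. Of 68 groups of values checked, 7 were picked out, where chance gives about 1 in 20, or 3.4. The values are log2.

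The total ncRNA count of library O in F0_SAL was 22.63, the next being 21.76. Library A was the lowest F0_MOR library for row 1 at 12.12 log2 CPM (the next 12.80) and for row 2 at 11.65 (the next 12.24). Row 24 was highest in library C in F0_SAL at 6.47 (the next 2.44) and in library E in F0_ABS-SAL at 5.87 (the next 2.36). Row 25 was lowest in library M in F0_MOR at -0.61 (the next 1.42), a library with 0 counts of it. Row 35 was lowest in library J in F0_ABS-MOR at -0.61 (the next 1.03), also with 0 counts.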

How the results depend on the processing

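Rows 1 and 2 kept their direction and call in both timepoint comparisons in each of the 14 other settings and with each library left out. The number of snRNA rows called higher in the saline groups was 13 with total count alone, 11 with TMM from rows that are not snRNA, with miRNA scaling, with both matrices joined, with 2 groups only or at an adjusted p under 0.05, and 4 with 1 row per read set. In the morphine groups it was 11 with at least 10 counts in every library and 4 with 1 row per read set. The number called lower in the saline groups was 1 with DESeq2, no filter, rows as deposited or 1 row per read set. In the morphine groups it was 3 with DESeq2, 2 with no filter or 1 row per read set, and 0 with the total count covariate or without libraries A to E. With a library left out, the saline counts ranged from 11 to 22 higher and from 0 to 1 lower, and the morphine counts from 17 to 18 higher and from 1 to 2 lower (2 without library N or U). Treatment and interaction counts were 0 throughout. Over all biotypes, rows called higher and lower in the saline groups were 95 and 17 in the main fit and 89 and 10 with total count alone. They were 71 and 47 with TMM from rows that are not snRNA, 71 and 29 with miRNA scaling and 71 and 42 with both matrices joined. For the filters, 2 groups only, the stricter threshold, 1 row per read set and each library left out, such counts are not given. The causes were not tested, except that fewer rows were tested under the stricter filter and with 1 row per read set.

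The direction of row 12 in the morphine groups reversed to 0.024 with rows as deposited, to 0.469 with the covariate, and without libraries T (0.007) and S (0.031), and with a library left out it ranged from -0.838 to 0.031. That of row 32 reversed to 0.033 with limma-voom.

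The median summed snRNA share over all distinct rows was 5.08%, 6.54%, 19.6% and 18.8% in F0_SAL, F0_MOR, F0_ABS-SAL and F0_ABS-MOR. It was 11.4%, 14.7%, 41.0% and 39.4% with rows as deposited, and 31.8%, 25.9%, 68.2% and 62.3% without mitochondrial rRNA in the denominator. Per 100 miRNA counts, it was 8.84, 10.2, 27.7 and 31.8. All of these sums count reads that near-identical rows share more than once, and rows 2 to 9 made up 77.7% of the snRNA counts over distinct rows. They are therefore not shares of reads. The lead rows alone took medians of 1.45%, 1.90%, 5.98% and 5.74% of the counts over distinct rows.

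No paired analysis was possible because the columns carry letters and no replicate numbers, and no label names a letter. Depth limits the rows below row 23, most of which had fewer than 100 counts per library.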

Other observations

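Row 38, the transcript ENSRNOT00000082920.1, did not pass the filter on low counts and was called lower after abstinence in some of the settings that tested it. It had 3 to 8 raw counts in all 7 F0_SAL libraries, and 0 counts in 4 of 5 F0_ABS-SAL libraries with 5 counts in the other. In F0_MOR it had 5 to 12 counts in all 7 libraries, and in F0_ABS-MOR 0 to 9, with 2 of 6 at 0. In the saline groups its log2 fold change was -3.32 with DESeq2 (adjusted p = 0.00753) and -2.85 with edgeR without a filter (adjusted p = 0.0284). In the morphine groups it was -1.82 with DESeq2 (adjusted p = 0.0615) and -1.91 with edgeR on 1 row per read set (adjusted p = 0.0574). The row was not called in the morphine groups with edgeR without a filter or with rows as deposited. It was also the row called lower in the saline groups when library C, H, P, V, W or R was left out and the filter then kept it. The counts are near the smallest that the matrix holds, and the row was singled out after its values had been seen.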
